A study of Homo sapiens with 9 samples.

Results

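The genes described here are 9 that link low oxygen to mitochondria and stress: BNIP3, BNIP3L, NDUFA4L2, COX4I2, LONP1, PDK1, MIR210HG, DDIT4 and NDRG1. Each gene was given a fixed window of 40 to 100 kb on the hg19 genome build, and it took every interval of HIF-1α enrichment whose summit, the point of most reads, lay in that window. Intervals of the 6 HIF-1α libraries that shared at least 1 bp were joined, which gave 30 regions in the 9 windows out of 9420 in all. The libraries were chromatin immunoprecipitation with sequencing (ChIP-seq) of HIF-1α from SK-N-BE(2) cells, an established neuroblastoma line of human origin that carries extra copies of MYCN. Hypoxia libraries 1, 2 and 3 came from cells at 1% oxygen for 48 hours, and normoxia libraries 1, 2 and 3 from cells at 21% oxygen for the same time. All 3 input libraries came from 21% oxygen, so cells at 1% oxygen had no input of their own. This is 1 cell line, and separate cultures for the libraries of a group are not recorded in the labels, so a p-value here tells only of variation among libraries, and that variation may be technical.

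HIF-1α is the part of the transcription factor HIF-1 whose amount depends on oxygen. Its prolyl hydroxylation marks it for destruction when oxygen is ample, and in low oxygen it accumulates, pairs with ARNT and binds DNA at hypoxia response elements with the core ACGTG or GCGTG. Its known targets include genes that clear mitochondria by mitophagy, genes that turn pyruvate and electrons away from respiration, and genes that restrain growth under stress.

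The promoters of 5 genes with a HIF-1α region at their start are shown first, because they carry the letters that HIF-1 reads. They are the 250 bases before the listed start, 5′ to 3′ on the gene's strand, from RefSeq on GRCh38.p14. Capitals mark each ACGTG or GCGTG on either strand, so that CACGT and CACGC are the reverse-strand forms. The palindrome CACGTG counts as 2 overlapping matches.
BNIP3 promoter, chr10:131981924-131982173, minus strand: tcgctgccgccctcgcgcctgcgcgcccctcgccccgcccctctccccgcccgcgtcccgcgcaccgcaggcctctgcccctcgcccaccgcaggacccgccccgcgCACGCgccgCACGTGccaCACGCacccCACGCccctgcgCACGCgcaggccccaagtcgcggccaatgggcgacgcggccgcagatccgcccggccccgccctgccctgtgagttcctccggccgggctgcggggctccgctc
LONP1 promoter, chr19:5720147-5720396, minus strand: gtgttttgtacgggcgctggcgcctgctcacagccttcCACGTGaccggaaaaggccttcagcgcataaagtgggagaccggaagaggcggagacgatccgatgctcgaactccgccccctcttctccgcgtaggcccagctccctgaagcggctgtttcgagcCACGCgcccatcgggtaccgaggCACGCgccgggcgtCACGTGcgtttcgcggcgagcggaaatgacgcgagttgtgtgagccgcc
PDK1 promoter, chr2:172555840-172556089, plus strand: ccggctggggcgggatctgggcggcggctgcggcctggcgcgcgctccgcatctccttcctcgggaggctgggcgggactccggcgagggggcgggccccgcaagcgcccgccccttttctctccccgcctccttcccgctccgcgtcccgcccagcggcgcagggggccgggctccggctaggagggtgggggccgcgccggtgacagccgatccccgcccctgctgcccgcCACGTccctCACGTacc
MIR210HG promoter, chr11:568458-568707, minus strand: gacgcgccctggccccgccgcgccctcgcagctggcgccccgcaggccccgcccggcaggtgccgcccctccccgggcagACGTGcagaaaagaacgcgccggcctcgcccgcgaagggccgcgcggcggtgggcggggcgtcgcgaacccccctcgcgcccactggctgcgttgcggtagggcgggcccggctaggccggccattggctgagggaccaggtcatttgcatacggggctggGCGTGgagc
DDIT4 promoter, chr10:72273674-72273923, plus strand: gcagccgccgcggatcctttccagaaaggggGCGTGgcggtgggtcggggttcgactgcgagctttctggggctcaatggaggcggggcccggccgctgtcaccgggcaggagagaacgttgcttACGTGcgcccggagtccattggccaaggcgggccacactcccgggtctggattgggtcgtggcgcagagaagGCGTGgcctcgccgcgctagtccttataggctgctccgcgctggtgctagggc

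The BNIP3 promoter held 6 matches, all in 1 cluster. The LONP1 promoter also held 6 matches, and its other listed start held 1. DDIT4 had 3 matches, MIR210HG had 2, and the PDK1 start shown had 2 while its other listed start had none. NDUFA4L2, listed under its newer symbol COXFA4L2, had 2 matches before each of its 2 starts. Of 35116 RefSeq promoters of the same length, 43.2% held at least 1 match, 19.4% at least 2 and 1.36% at least 5. A match describes the letters and is not shown to be a bound site, and these sequences are on another build than the HIF-1α intervals, so no interval was laid over them. COX4I2, BNIP3L and NDRG1 had no entry in the table, so 6 of the 9 genes were searched.

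The micro-RNA made from MIR210HG, miR-210, is shown because it is the product through which that noncoding gene acts on mitochondria. Capitals mark the seed, bases 2 to 8, with which it pairs with target transcripts such as that of the iron-sulfur cluster scaffold ISCU.
hsa-miR-210-3p: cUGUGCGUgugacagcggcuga
hsa-miR-210-5p: aGCCCCUGcccaccgcacacug

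HIF-1α regions were called in the windows of all 9 genes in hypoxia and of 3 of them in normoxia. Some windows reach other genes, such as SHMT2 and RPL36, so a region counted for a gene is not thereby assigned to it. A call at the same region in at least 2 hypoxia libraries was found for 9 of 9 genes, where 6.63% of all 60 kb bins of the genome had one. A call in all 3 hypoxia libraries was found for 6 of 9 genes (BNIP3L, NDUFA4L2, COX4I2, LONP1, PDK1 and DDIT4), where 1.96% of bins had one. A call in at least 1 normoxia library was found for 3 of 9 genes (DDIT4, PDK1 and COX4I2), where 0.249% of bins had one. All 3 of these came from normoxia 3, and without that library the count was 0 of 9. The windows were drawn around known genes with earlier results at hand and the bins were not, so the shares are given side by side with no test.

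By library, hypoxia 1, 2 and 3 called 6, 9 and 9 of the genes, against 0, 0 and 3 in normoxia 1, 2 and 3. Over all 60 kb bins the share with a call was 2.2%, 8.84% and 10.8% in hypoxia 1, 2 and 3, against 0.111%, 0.0524% and 0.182% in normoxia 1, 2 and 3. BNIP3, MIR210HG and NDRG1 were the 3 genes with no call in hypoxia 1. At least 2 hypoxia libraries called 19 of the 30 regions, against 43.9% of all 9420 regions. Of the same 30 regions, 3 had a normoxia call, against 1.46% of all regions. Among regions called in all 3 hypoxia libraries, 3 of 8 at these genes had a normoxia call, against 7.1% of all 1085.

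**Figure D1:**
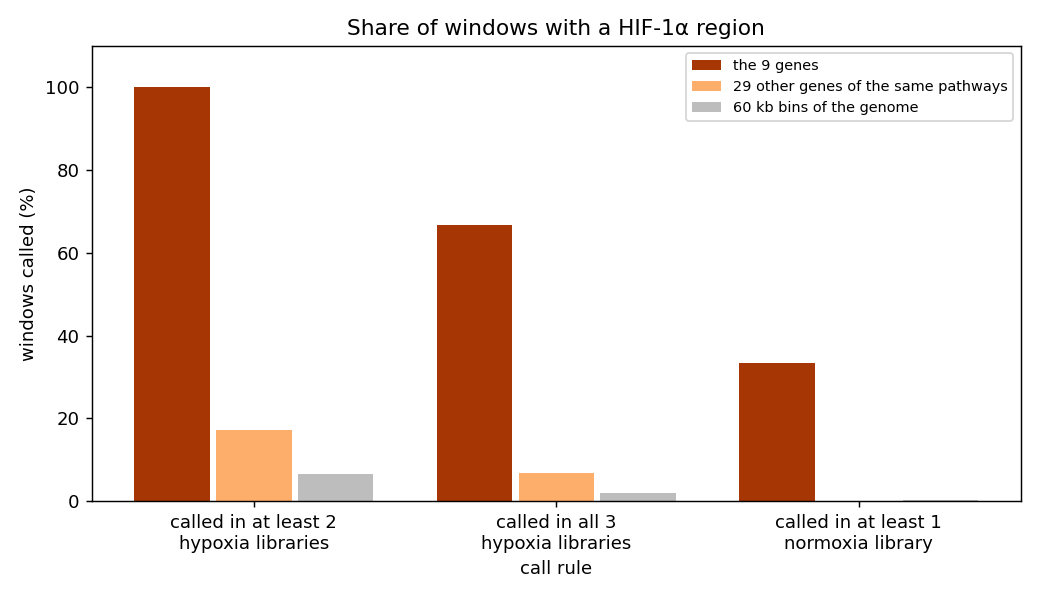
Percent of windows (vertical axis) with a HIF-1α region under 3 call rules, for the 9 genes, for 29 other genes of the same pathways and for 60 kb bins of the whole genome. The 9 genes stood at 100%, 66.7% and 33.3%, and the bins at 6.63%, 1.96% and 0.249%.

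The libraries differed in ways that touch every value below. The lists held 1408, 5833 and 7619 intervals in hypoxia 1, 2 and 3, and 75, 32 and 109 intervals in normoxia 1, 2 and 3. Depth, taken as the background, was 5.31 to 6.62 reads per kb in hypoxia and 6.02 to 6.69 reads per kb in normoxia. The length to which reads were extended, inferred from the shortest interval of each list because no setting is stated, was 48 bp in hypoxia 1 and 155 and 167 bp in hypoxia 2 and 3, against 46 or 47 bp in normoxia. Under that inference, summit reads and folds lie on 1 scale for hypoxia 1 and the normoxia libraries only, and the part of the extension in the longer lists of hypoxia 2 and 3 was not tested. A list that lacks a region gives no read count there. At the MYCN band, 2p24, the local background was 153 and 149 times the genome-wide level in hypoxia 2 and 3 and 123 times in normoxia 3, at a locus known to be amplified in this line. The other 3 lists held no interval there.

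BNIP3 and BNIP3L encode receptors on the outer mitochondrial membrane that tie mitochondria to the autophagy machinery. No hg19 gene annotation was read, so the place of a region in a gene is given in words, from general knowledge of the locus. At BNIP3 the leading region, the one with the highest fold rank, spanned the gene's start at chr10:133794907-133795680. Its summit held 44 and 27 reads in hypoxia 2 and 3, and it had no call in hypoxia 1 or in any normoxia library. Fold over the local background, the authors' own value, was 23.4 and 14.8 in those libraries. The summits of the 2 libraries lay 161 bp apart, the widest spread of any leading region here.

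BNIP3 had 2 more regions, 1 at 19.5 kb from the leading summit and 1 just beyond it, on the side of the gene's 3′ end and farther away than the gene is long (14240 bp). The nearer reached folds of 11.1 and 6.01 in hypoxia 2 and 3, and the farther 7.02 and 5.83. Neither was called in hypoxia 1 or in normoxia. In all, intervals covered 0, 1207 and 1896 bp of the BNIP3 window in hypoxia 1, 2 and 3, against 0 bp in each normoxia library.

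At BNIP3L the leading region lay just inside the gene, at chr8:26241077-26241576, and it was called in every hypoxia library. Its summit held 14, 69 and 63 reads in hypoxia 1, 2 and 3, with folds of 11.4, 33.0 and 24.4, and it had no call in normoxia. A weaker region 0.782 kb away, at the start of the gene, reached folds of 7.69 and 3.39 in hypoxia 2 and 3. Covered length was 186, 948 and 601 bp in hypoxia 1, 2 and 3, against 0 bp in each normoxia library. Of the pair of receptors, BNIP3L thus had the call in hypoxia 1 that BNIP3 lacked, with more summit reads in each library that called both.

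NDUFA4L2, COX4I2, LONP1 and PDK1 act on respiration itself. NDUFA4L2 is a relative of the respiratory chain protein NDUFA4 that lowers complex I activity in hypoxia. Its leading region, at chr12:57628354-57629431, lay at the 3′ end of the gene, beside SHMT2, and not at its start. Its summit held 36, 180 and 214 reads in hypoxia 1, 2 and 3, with folds of 20.1, 80.7 and 86.0. Those folds ranked 43 of 1408, 15 of 5833 and 16 of 7619 in the lists. No normoxia library had a call in the window.

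A string of 5 weaker NDUFA4L2 regions ran 3.40 to 7.78 kb from the leading summit, over the rest of the gene and past its start. Of these, 2 were called in hypoxia 2 and 3, with folds between 3.37 and 6.72, and 3 in hypoxia 3 alone, with folds of 4.01 to 5.61. The one nearest the start of the gene, 5.30 kb from the leading summit, was called in hypoxia 3 alone. Covered length came to 719, 1364 and 2646 bp in hypoxia 1, 2 and 3, against 0 bp in each normoxia library.

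COX4I2 encodes the hypoxic isoform of cytochrome c oxidase subunit 4. Its leading region, just inside the gene at chr20:30225906-30226756, had the most reads of the 9 genes in hypoxia 1 and 2. The summit held 45, 200 and 192 reads in hypoxia 1, 2 and 3, against 9 reads in normoxia 3 and no call in normoxia 1 or 2. Folds were 25.0, 59.0 and 102 in hypoxia, against 7.73 in normoxia 3. The fold of 102 ranked 8 of 7619 in hypoxia 3. Reads were alike in hypoxia 2 and 3, while the local background was 2.62 times the genome-wide level in hypoxia 2 and 1 times in hypoxia 3. Summits lay within 4 bp of each other across the hypoxia libraries, and those of hypoxia 1 and normoxia 3 stood at the same base. A second region 14.6 kb away, past the gene (7095 bp long) and toward BCL2L1, was called in hypoxia 2 and 3 only, with folds of 9.21 and 6.01. Covered length was 536, 1469 and 1254 bp in hypoxia 1, 2 and 3, against 0, 0 and 106 bp in normoxia 1, 2 and 3.

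LONP1 encodes a protease of the mitochondrial matrix that degrades the normoxic subunit COX4I1, the partner of the switch to COX4I2. Its leading region spanned the start of the gene at chr19:5719928-5720780. The summit held 29, 105 and 97 reads in hypoxia 1, 2 and 3, with folds of 16.96, 55.2 and 24.5, and no normoxia library had a call. Between hypoxia 2 and 3 the reads were alike while the fold was lower in hypoxia 3, whose local background there was 3.38 times its genome-wide level. A weaker region 32.9 kb away, beyond the end of the gene and near RPL36, was also called in all 3 hypoxia libraries, with folds of 4.88, 6.53 and 11.7. Covered length was 360, 1303 and 1046 bp in hypoxia 1, 2 and 3, against 0 bp in each normoxia library.

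PDK1 encodes a kinase that shuts the pyruvate dehydrogenase complex and so keeps pyruvate out of the citric acid cycle. All of its calls fell in 1 region at the start of the gene, chr2:173420376-173421502; the promoter before one of its listed starts is among those shown above. The summit held 24, 173 and 145 reads in hypoxia 1, 2 and 3, against 7 reads in normoxia 3 and no call in normoxia 1 or 2. Folds were 18.3, 86.7 and 58.5 in hypoxia, against 6.18 in normoxia 3. The fold of 86.7 ranked 11 of 5833 in hypoxia 2. Covered length was 255, 705 and 1069 bp in hypoxia 1, 2 and 3, against 0, 0 and 60 bp in normoxia 1, 2 and 3.

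MIR210HG, the host of miR-210, had the weakest leading region of the 9 genes in hypoxia 2 and 3. The region spanned the start of the gene at chr11:568454-568826. Its summit held 18 and 15 reads in hypoxia 2 and 3, with folds of 9.90 and 8.48, and it had no call in hypoxia 1 or in normoxia. The window of ISCU, the known target of miR-210, held 2 intervals in hypoxia 2, the higher with a fold of 5.51, and none in the other libraries. Covered length was 0, 242 and 373 bp in hypoxia 1, 2 and 3, against 0 bp in each normoxia library.

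DDIT4, also called REDD1, encodes a stress protein that restrains mTORC1 through TSC2. It had 9 regions, more than any other of the genes, and the 2 strongest stood 12.8 kb apart. The leading one, at chr10:74020226-74021549, lay upstream of the gene. Its summit held 41, 161 and 183 reads in hypoxia 1, 2 and 3, against 14 reads in normoxia 3 and no call in normoxia 1 or 2. Folds were 15.6, 80.7 and 73.7 in hypoxia, against 11.6 in normoxia 3, where it ranked 11 of 109, the highest place of any of the 9 genes in a normoxia list.

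The second DDIT4 region, at chr10:74033142-74033913, spanned the start of the gene, whose promoter is shown above. Its summit held 20, 82 and 66 reads in hypoxia 1, 2 and 3, with folds of 12.7, 41.1 and 35.5, and it had no call in normoxia. The upstream region thus had more reads than the one at the start in every hypoxia library, and it alone had a call in normoxia. Another region beside the promoter, 11.9 kb from the leading summit, and one 36.5 kb away were called in hypoxia 2 and 3, with folds of 3.82 and 8.48 at the nearer and 6.91 and 14.3 at the farther. The other 5 were called in hypoxia 3 alone, with folds of 3.71 to 4.77. Covered length was 946, 2313 and 4242 bp in hypoxia 1, 2 and 3, against 0, 0 and 134 bp in normoxia 1, 2 and 3.

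NDRG1, a stress-induced gene whose family is named for repression by N-myc, had 1 region, at chr8:134282232-134282616. It lay inside the gene and away from its start. Its summit held 36 and 27 reads in hypoxia 2 and 3, with folds of 17.1 and 8.63, and it had no call in hypoxia 1 or in normoxia. The summits of the 2 libraries stood 7 bp apart. Covered length was 0, 385 and 345 bp in hypoxia 1, 2 and 3, against 0 bp in each normoxia library.

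**Figure D2:**
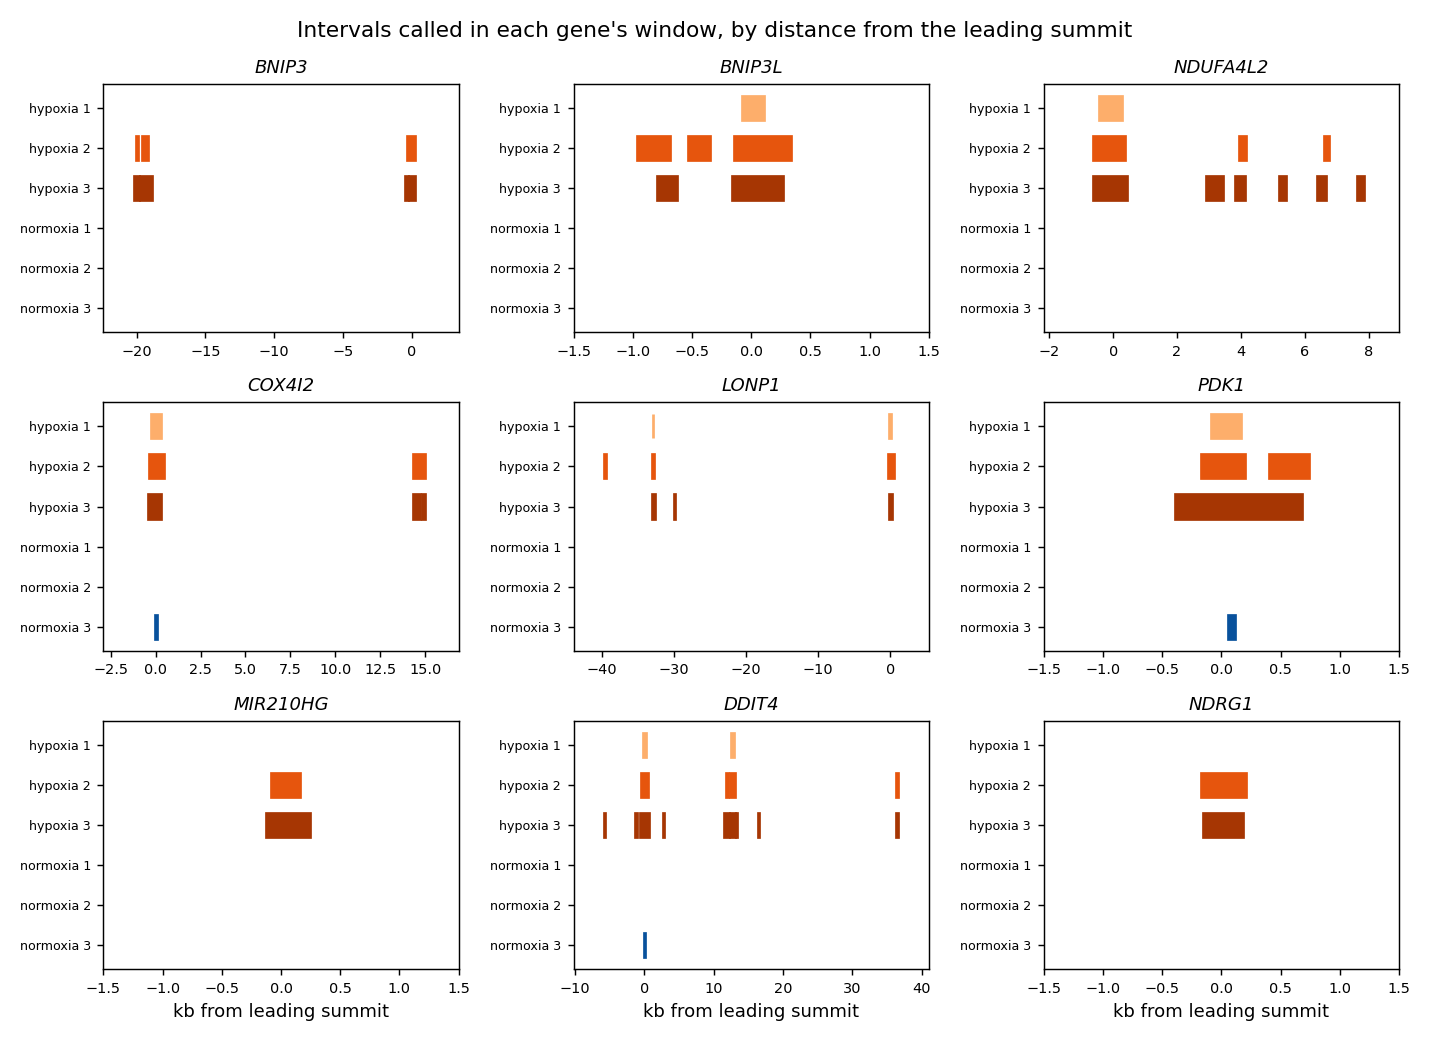
Intervals called in each gene's window (1 panel a gene) by distance from the leading summit in kb (horizontal axis, a scale of its own in each panel), with hypoxia libraries 1 to 3 above normoxia libraries 1 to 3. The 3 normoxia intervals all belong to normoxia 3 and sit inside the leading regions of COX4I2, PDK1 and DDIT4, while DDIT4 and NDUFA4L2 have the most intervals in hypoxia.

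The order of the genes by summit reads at the leading region was much the same in hypoxia 2 and 3. COX4I2, NDUFA4L2, PDK1 and DDIT4 came first, LONP1, BNIP3L and BNIP3 followed, and NDRG1 and MIR210HG came last; BNIP3 and NDRG1 tied in hypoxia 3. Spearman's rho between the 2 libraries over the 9 genes was 0.96, and over the 6 genes called in hypoxia 1 it was 0.71 for hypoxia 1 with hypoxia 2 and 0.77 with hypoxia 3. These are descriptions across genes that share a library and its depth.

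Many neighbours in that order could not be told apart by counting error. In hypoxia 2 the 95% interval of the ratio of 1 gene's reads to the next lay above 1 for DDIT4 over LONP1 (1.53-fold, 1.19 to 1.98), LONP1 over BNIP3L, BNIP3L over BNIP3, and NDRG1 over MIR210HG. Within the first 4 genes it included 1 at each step, as at COX4I2 over NDUFA4L2 (1.11-fold, 0.904 to 1.37). In hypoxia 3 it lay above 1 for each step from DDIT4 over PDK1 (1.26-fold, 1.01 to 1.58) to BNIP3L over BNIP3 (2.33-fold, 1.46 to 3.81). In hypoxia 1, where the leading summits held 14 to 45 reads, it included 1 at every step. These intervals cover counting error within 1 library only.

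Set in their lists, the leading regions stood high in hypoxia. Their median fold was 17.6, 55.2 and 24.5 in hypoxia 1, 2 and 3, against medians of 6.07, 6.53 and 6.12 over all intervals of those lists. In the first 1% of the list by fold were 1 of 6 in hypoxia 1, 5 of 9 in hypoxia 2 and 4 of 9 in hypoxia 3. Each leading region is the highest of its window, so these medians are no test.

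**Figure D3:**
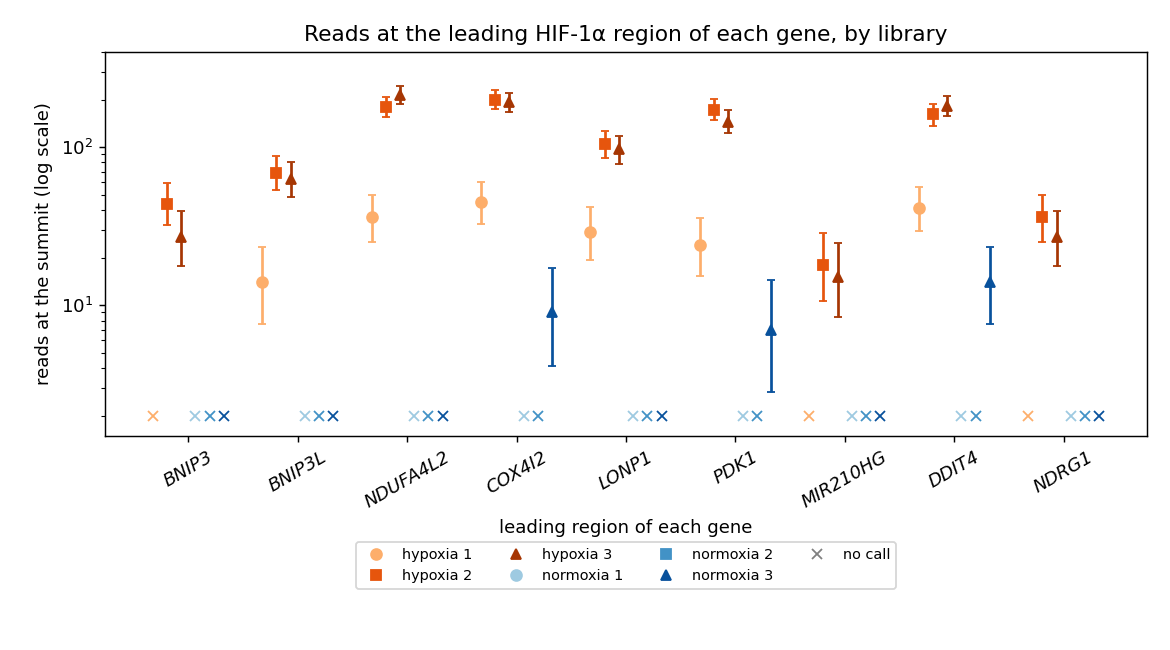
Reads at the summit of each gene's leading region (log axis) in hypoxia libraries 1 to 3 and normoxia libraries 1 to 3, with exact Poisson 95% intervals; a cross marks a library with no call. NDUFA4L2, COX4I2, PDK1 and DDIT4 sit highest in hypoxia 2 and 3, and 3 genes have a point in normoxia 3. Only hypoxia 1 and the normoxia libraries share nearly the same inferred read extension.

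The length covered by intervals was compared between groups for each gene with a two-sided exact permutation test over the 6 libraries. For 6 of 9 genes every hypoxia library had more covered length than every normoxia library, where 1.96% of all 60 kb bins did; these were BNIP3L, NDUFA4L2, COX4I2, LONP1, PDK1 and DDIT4. Each of them had p = 0.1, the smallest that 3 against 3 libraries allow in this exact test, so no gene could pass 0.05. BNIP3, MIR210HG and NDRG1, at 0 bp in hypoxia 1, had p = 0.4 in the same exact test.

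The size of the difference varied widely between genes. DDIT4 averaged 2500 ± 1656 bp (SD, n = 3) across the hypoxia libraries and 44.7 ± 77.4 bp (SD, n = 3) across the normoxia ones. NDUFA4L2 averaged 1576 ± 981 bp in hypoxia and 0 bp in normoxia, and COX4I2 averaged 1086 ± 489 bp in hypoxia and 35.3 ± 61.2 bp in normoxia. PDK1 averaged 676 ± 408 bp in hypoxia and 20 ± 34.6 bp in normoxia. MIR210HG was at the low end, with 205 ± 189 bp in hypoxia and 0 bp in normoxia. Covered length also follows the read extension, which differed between the hypoxia libraries, and hypoxia 1 had less than hypoxia 2 and 3 at each of the 9 genes.

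**Figure D4:**
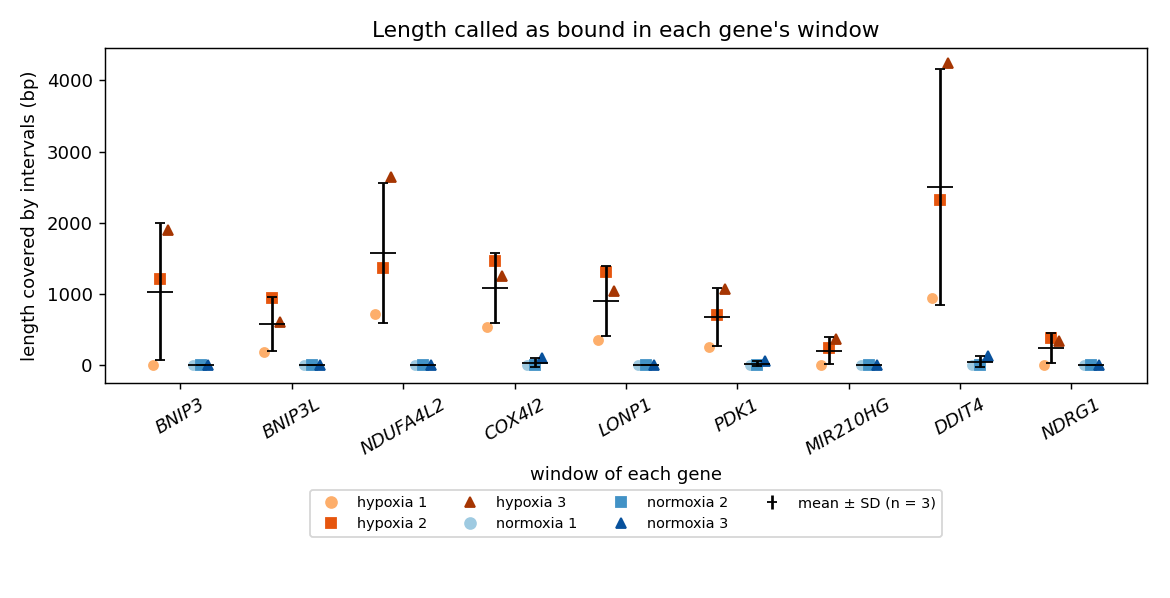
Length covered by intervals in each gene's window in bp, by library, with hypoxia left of normoxia and black bars for the mean ± SD of 3 libraries. In 6 genes every hypoxia point lies above every normoxia point; BNIP3, MIR210HG and NDRG1 have 1 hypoxia library at 0 bp.

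Hypoxia 1 and the normoxia libraries had nearly the same inferred read extension and depth, and the ratios below rest on that inference. After scaling to depth, COX4I2 had 4.63 times as many reads in hypoxia 1 as in normoxia 3 (95% exact binomial interval 2.23 to 10.8), from 45 reads in hypoxia 1 and 9 in normoxia 3. PDK1 had 3.17 times as many (1.33 to 8.72), from 24 reads in hypoxia 1 and 7 in normoxia 3 at summits 135 bp apart. DDIT4 had 2.71 times as many at its upstream region (1.45 to 5.38), from 41 reads in hypoxia 1 and 14 in normoxia 3. At all 3 genes normoxia 3 had a call with fewer reads than hypoxia 1. The scaling used genome-wide depth and not local background. In hypoxia 1 the local background was 5.30, 2.65 and 1.15 times the genome-wide level at DDIT4, COX4I2 and PDK1, against 1 in normoxia 3. Over local background each ratio would be lower. In the plain ratio of reads to local background, the order at DDIT4 would reverse. That ratio sets 41 reads over 1.69 in hypoxia 1 and 14 over 0.294 in normoxia 3. The authors' fold, read with 1 added to both terms, kept the order, at 15.6 in hypoxia 1 and 11.6 in normoxia 3. Each ratio compares 1 library with 1 other and covers counting error only.

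Regions without a normoxia call give no read count there, so only the reads a call would have needed can be stated. At the genome-wide background, 5 summit reads were enough for a call in hypoxia 1 and 6 were needed in each normoxia library. A leading region called in hypoxia 1 and a normoxia list that did not call it made 15 pairs. In these pairs, hypoxia 1 reads scaled to the depth of the normoxia library were 2.08 to 7.26 times the number needed. The value was lowest at BNIP3L and highest at COX4I2, which normoxia 1 and 2 did not call but normoxia 3 did. These regions entered because hypoxia 1 had called them, at nearly the same depth and threshold, so that they exceed the number needed is mostly fixed by that choice and is no test of the missing calls. The weaker LONP1 region, with 8 reads in hypoxia 1, fell short of the number needed in all 3 normoxia libraries when the local background of hypoxia 1 was used. For BNIP3, MIR210HG and NDRG1 no such comparison could be made, since hypoxia 1 itself had no call there.

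**Figure D5:**
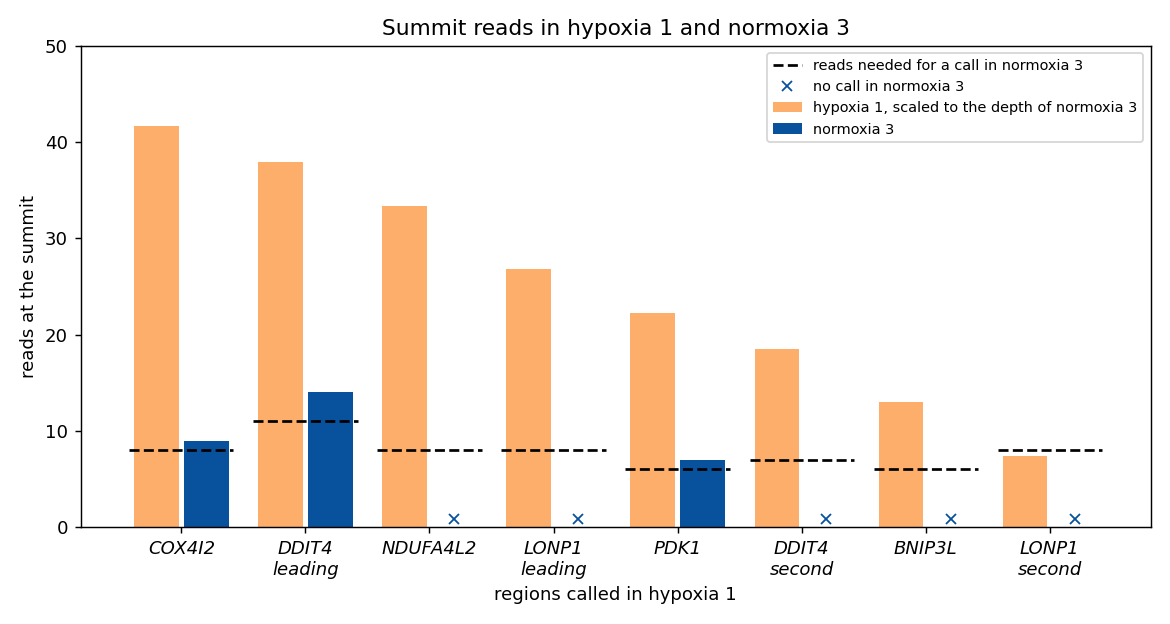
Summit reads at the 8 regions called in hypoxia 1, scaled to the depth of normoxia 3, beside the reads in normoxia 3; a cross marks no call there, and dashed lines give the reads normoxia 3 would need at the local background of hypoxia 1. COX4I2, DDIT4 (leading) and PDK1 have fewer reads in normoxia 3 than in hypoxia 1, and the second LONP1 region lies below its dashed line in hypoxia 1.

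Windows of 29 other genes of the same pathways, relatives and partners of the 9, were read in the same way. A region was called in at least 2 hypoxia libraries for 5 of 29 (17.2%) and in all 3 for 2 of 29 (6.90%). Over all 60 kb bins these shares were 6.63% and 1.96%. In normoxia none of the 29 was called, where 0.249% of bins were. Of the 29, 10 were called in 1 hypoxia library and 14 in none. These windows were set by hand and often hold other genes, so a region there is not assigned to the gene named, and no test was made between the lists.

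Of the windows of 10 further mitophagy genes, 1 had a call in at least 2 hypoxia libraries, with folds of 18.0 and 21.7 in hypoxia 2 and 3. It was the window of FKBP8, an outer-membrane mitophagy receptor like BNIP3. The distance from a region to the gene named was not measured for any of these windows. Of the windows of 8 further genes of respiration and pyruvate control, none had such a call. Among all 60 kb bins 6.63% had one, and both lists are too short to be set apart from that share. The 8 include PDK2, PDK3 and PDK4, the relatives of PDK1, and COX4I1 and NDUFA4, the counterparts of COX4I2 and NDUFA4L2. These names were picked after their values were seen. The windows of PDK2 and PDK3 each had 1 interval in hypoxia 3 with a fold of 6.36. Of the windows of 2 further mitochondrial proteases, that of CLPP, which works in the matrix beside LONP1, reached folds of 8.06 and 11.1 in hypoxia 2 and 3.

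Of the windows of 6 further stress and mTOR genes, those of TSC2 and ATF4 were called in at least 2 hypoxia libraries. The TSC2 window held 1 region in all 3 hypoxia libraries, with folds of 6.92, 22.9 and 25.4 in hypoxia 1, 2 and 3. The window of ATF4, a stress transcription factor, had folds of 4.22 and 7.50 in hypoxia 2 and 3. Of the windows of 3 further NDRG genes, that of NDRG4 had a region in all 3 hypoxia libraries, with folds of 4.44, 6.25 and 8.48. The folds of these 5 lay below those of COX4I2, NDUFA4L2, PDK1 and DDIT4 in every hypoxia library that called them, but not below all 9 genes. In hypoxia 3 the 25.4 of the TSC2 window was above the 24.5 of LONP1 and the 24.4 of BNIP3L. Summit reads gave the opposite order there, with 47 in the TSC2 window, 97 at LONP1 and 63 at BNIP3L. The fold of 21.7 in the FKBP8 window was above the 14.8 of BNIP3, and its 40 summit reads were above the 27 of BNIP3.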

How the data were processed

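The 6 HIF-1α ChIP-seq libraries have 1 deposited peak list each, and the 3 inputs entered only as far as the authors used them as control. Reads were aligned to hg19 and peaks called by the authors; the submitters' processing notes name BWA 0.7.17, MACS2 and that build, but no MACS2 version or setting. Each deposited list gives a fold, −log10 p, −log10 q and a score, all from the authors' peak caller. The score is 10 times the −log10 q cut to a whole number. The fold was read as summit reads plus 1 over local background plus 1. It is thus lower than the plain ratio of reads to background, most of all where the background is low.

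From these, summit reads and local background were recovered by solving the fold and the Poisson tail together, within 0.001 in −log10 p; 16463 of 16463 summits came out whole (100%). The lowest background of a list divided by its shortest interval served as depth. Intervals with the same ends were counted once, and the summit with the smallest p was used. Intervals sharing at least 1 bp were joined into regions. The windows of the 9 genes were set against all 60 kb bins of the genome, 60 kb being their median width. Covered length was tested with a two-sided exact permutation test. Read ratios have exact binomial 95% intervals and single counts exact Poisson ones, which cover counting error only, since reads without molecular identifiers are not independent molecules. Total reads per library are not in the lists.

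Groups and replicate numbers came from the titles. Deviations of same-numbered libraries had correlations of 0.077, 0.019 and 0.0023 for numbers 1, 2 and 3. With only 32 to 109 intervals in a normoxia list, these values could hardly have shown a pairing, so they do not settle it. The main test has no block, and a test with a replicate block is given below as an alternative. All 9 genes are named; of the 29 pathway genes, those called in at least 2 hypoxia libraries or in normoxia are named with their values, and ISCU, PDK2, PDK3, PDK4, COX4I1 and NDUFA4 were added after their values were seen. The genes and lists were chosen with earlier results of these data known. The chromosome of 38 of 38 windows matched the RefSeq GRCh38.p14 gene table. Alternatives changed the peak threshold, the windows, the list length, the overlap and the libraries. The code was tested on simulated data. Work was done in Python 3.11.15 with numpy 2.4.6, scipy 1.17.1 and matplotlib 3.10.9.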

Additional observations from a re-analysis of the deposited data

How the results depend on the processing

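The count of 9 of 9 genes called in at least 2 hypoxia libraries stayed at 9 with −log10 q of at least 5, fold of at least 6, overlap in place of the summit, windows widened by 20 kb, summits within 150 bp or a reciprocal overlap of at least 50%. It was 7 with hypoxia lists cut to 1408 intervals each, 6 in the middle 20 kb of the windows, 6 when all 3 hypoxia libraries were required, and 6 to 9 with 1 library left out, lowest without hypoxia 2 or hypoxia 3. The normoxia count of 3 genes was 2 with −log10 q of at least 5, 1 in the middle 20 kb, 0 when at least 2 normoxia libraries were required, and 0 to 3 with 1 library left out, the 0 being without normoxia 3. The count of 6 genes whose covered lengths did not overlap was 3 in the middle 20 kb and 6 to 9 with 1 library left out. All regions of BNIP3L, LONP1 and PDK1 lie outside the middle 20 kb. With same-numbered libraries as a replicate block, an exact sign-flip permutation gave the same 6 genes a p of 0.25, the smallest that 3 pairs allow. Of 117 recomputed differences in covered length, 113 stayed higher in hypoxia, 4 were 0 and 0 reversed. Besides those 3 genes in the middle 20 kb, MIR210HG was at 0 with lists of equal length. At the 6 genes with no normoxia call, removing calls or libraries could not reverse the difference. The replicate block leaves the difference unchanged at every gene. The absence of reversals was thus largely fixed beforehand and is no test. The 5 pathway genes became 2 when all 3 hypoxia libraries were required, 7 with wider windows and 4 with fold of at least 6. Leading summits held 14 to 45 reads in hypoxia 1, which limits the precision there, and groups of 3 libraries were not searched for outliers.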

Other observations

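Within 20 kb outside the windows, 4 genes had a further region. At COX4I2 it lay 11.5 kb past the edge, with a fold of 10.9 in hypoxia 2 and calls in 2 hypoxia libraries, and at DDIT4 it lay 16.9 kb past the edge, with a fold of 14.3 in hypoxia 3 and calls in 2 hypoxia libraries. At MIR210HG and BNIP3L the regions lay 12.6 and 16.7 kb past the edge and were called in 1 hypoxia library each, with folds of 5.18 and 8.33. The region closest to an edge from inside was the far one of DDIT4, 2.70 kb within it, with a fold of 14.3 in hypoxia 3.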
